A study of Mus musculus with 11 samples.

Results

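The guanylate-binding proteins (GBPs) and the immunity-related GTPases (IRGs) are 2 families of interferon-inducible GTPases that defend cells against intracellular microbes. The 10 genes described here are the GBP genes Gbp2, Gbp3, Gbp5, Gbp6, Gbp7 and Gbp9 and the IRG genes Irgm1, Irgm2, Igtp and Iigp1, taken by symbol from a table of 55487 Ensembl genes, each matching 1 gene. RNA was sequenced from bone marrow-derived macrophages of C57BL/6J mice aged 2 to 5 months, grown from marrow for 5 to 6 days in medium with CMG-conditioned medium. The control group (7 libraries) received 0 µg/ml and the treated group (4 libraries) 0.5 µg/ml CYR61 for 24 h. CYR61 (CCN1) is a matricellular protein that signals to cells through integrins. Neither a vehicle for the controls nor the number of animals or cultures behind the libraries is stated, so the spread that p-values rest on is that of libraries and may be technical.

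GBPs are large GTPases that assemble on the membranes of pathogen-containing vacuoles and on bacteria in the cytosol, where they expose bacterial components to caspase-11 and to inflammasomes. IRG proteins act on the same vacuoles. The effector IRGs, of which Iigp1 is one, load onto and disrupt the vacuole membrane, while the regulatory IRGs Irgm1, Irgm2 and Igtp (also called Irgm3) sit on the cell's own membranes and hold the effectors inactive there. Transcription of both families is driven by interferon gamma and by type I interferons through transcription factors that bind short promoter elements. STAT2, IRF9 and IRF1 act at the interferon-stimulated response element (ISRE). A second element is the gamma-activated site (GAS).

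Promoter sequences are shown first, as a description. Both families were already known to be interferon-inducible, so motif matches in them are not independent evidence. Related genes can also share promoter sequence. Windows of 300 bases ran from 250 before to 50 after each RefSeq start site (GRCm38.p6). They were used for 7 of the 10 genes: Gbp2, Gbp3 (2 start sites), Gbp5, Gbp7, Irgm1, Irgm2 and Igtp. No window was used for Gbp6, Gbp9 or Iigp1, so their promoters were not searched. This does not mean that RefSeq holds no window for them. An ISRE core was searched as GAAA, any 2 bases and GAAA, on both strands (TTTC, any 2 bases and TTTC on the other), and 7 of the 7 genes held at least 1 match, against 3.99% of the 27025 genes in the RefSeq promoter table. One match per gene is printed 5′ to 3′ on the gene's strand as a stretch of 30 bases, with the match in capitals.
Gbp2 (chr3:142620594-142620623, plus strand): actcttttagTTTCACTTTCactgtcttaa
Gbp3 (chr3:142559989-142560018, plus strand): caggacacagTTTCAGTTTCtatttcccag
Gbp5 (chr3:142496759-142496788, plus strand): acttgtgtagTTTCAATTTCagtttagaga
Gbp7 (chr3:142530273-142530302, plus strand): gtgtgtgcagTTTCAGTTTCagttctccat
Irgm1 (chr11:48871425-48871454, minus strand): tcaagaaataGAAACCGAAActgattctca
Irgm2 (chr11:58214903-58214932, plus strand): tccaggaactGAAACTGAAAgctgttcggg
Igtp (chr11:58199512-58199541, plus strand): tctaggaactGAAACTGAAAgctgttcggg

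In 6 of these 7 genes the first base of the printed match lay 24 to 64 bases before the start site, and in Gbp5 it lay 165 bases before it. Irgm1 and Gbp3 each held a second match that overlapped the first by 4 bases. The GAS core, searched as TTCNNNGAA (the same letters on both strands), was found in 4 of 7 genes (Gbp5, Gbp7, Irgm2 and Igtp), against 9.55% of genes in the table, and overlapped no ISRE match. In Irgm2 and Igtp the GAS match ended 2 bases before the ISRE match. An NF-kB core, searched on both strands as GGGA, any 2 bases and TTCC, matched in Gbp2 and Gbp5, against 1.63% of genes, and overlapped neither of the other motifs. All 3 motifs were chosen with these sequences in view. Such matches are letters in a window, not measured binding. The whole windows of Gbp2, Gbp5, Irgm2 and Igtp are given with ISRE and GAS matches in capitals, as Gbp2 has an ISRE match and no GAS match, Gbp5 both motifs far apart, and Irgm2 and Igtp the joined pair. The windows of Irgm2 and Igtp also share an identical run of 61 bases, which begins after the pair and does not hold it.
Gbp2 (chr3:142620413-142620712, plus strand): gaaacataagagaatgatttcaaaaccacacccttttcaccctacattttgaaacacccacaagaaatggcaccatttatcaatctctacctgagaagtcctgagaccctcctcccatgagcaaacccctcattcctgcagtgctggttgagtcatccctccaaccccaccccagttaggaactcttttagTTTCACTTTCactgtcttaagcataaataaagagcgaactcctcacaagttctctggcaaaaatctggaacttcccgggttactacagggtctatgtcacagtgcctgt
Gbp5 (chr3:142496684-142496983, plus strand): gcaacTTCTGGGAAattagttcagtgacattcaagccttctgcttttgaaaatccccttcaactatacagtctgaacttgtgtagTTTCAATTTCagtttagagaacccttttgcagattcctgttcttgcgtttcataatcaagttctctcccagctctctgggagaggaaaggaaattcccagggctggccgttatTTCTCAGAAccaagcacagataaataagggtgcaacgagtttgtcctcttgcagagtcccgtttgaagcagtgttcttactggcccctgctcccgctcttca
Irgm2 (chr11:58214727-58215026, plus strand): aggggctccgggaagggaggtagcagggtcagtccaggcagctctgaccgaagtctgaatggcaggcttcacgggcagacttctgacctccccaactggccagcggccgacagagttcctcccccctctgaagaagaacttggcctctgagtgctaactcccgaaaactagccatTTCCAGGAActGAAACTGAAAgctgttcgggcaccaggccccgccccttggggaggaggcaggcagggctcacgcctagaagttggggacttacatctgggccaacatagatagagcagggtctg
Igtp (chr11:58199306-58199605, plus strand): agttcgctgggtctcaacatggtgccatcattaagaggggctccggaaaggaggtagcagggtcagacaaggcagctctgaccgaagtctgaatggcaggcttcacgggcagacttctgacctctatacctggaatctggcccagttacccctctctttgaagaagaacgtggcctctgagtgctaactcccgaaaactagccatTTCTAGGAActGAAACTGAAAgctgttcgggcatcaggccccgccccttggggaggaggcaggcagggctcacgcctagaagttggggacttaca

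**Figure D1:**
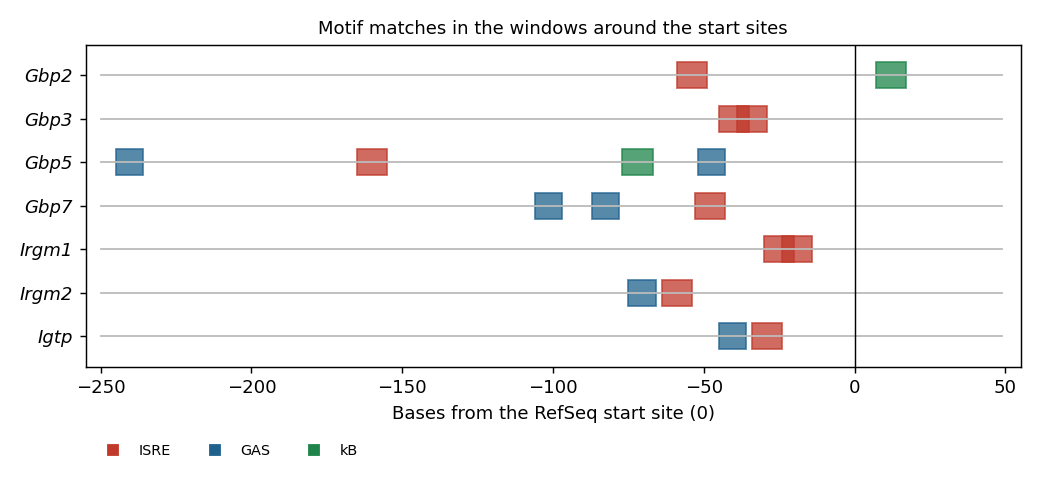
Positions of ISRE (red), GAS (blue) and NF-kB (green, kB) motif matches in the windows of 7 genes; the x axis gives bases from the RefSeq start site at 0 and each grey line is 1 window of 300 bases (for Gbp3, that of the start site with matches). Every gene has a red box, and in Irgm2 and Igtp a blue box stands directly before it.

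The libraries held 14912123 to 21047654 counts (control) and 17390272 to 20760322 (CYR61). Macrophage markers were abundant. The summed level of 8 markers was 22340 to 23730 CPM (counts scaled to library size with TMM factors) in control libraries. In CYR61 libraries it was 24710 to 26920 CPM. Lyz2 made up most of this sum, at 16580 to 17890 CPM in control and 18430 to 20250 CPM in CYR61 libraries. Of the 8 markers 5 rose, against 5.33% of all genes tested. Of 6 natural killer cell markers, 0 could be tested and Ncr1, Nkg7 and Gzma had 0 counts in every library. Their summed level was 0.0545 to 0.459 CPM in control and 0.164 to 0.277 CPM in CYR61 libraries. T cell markers summed to 0.429 to 1.24 and 0.943 to 1.63 CPM, with Cd3e at 0 counts in every library. Of the 6 granulocyte markers 1 was tested, S100a8, which rose from 0.97 ± 0.264 to 1.69 ± 0.153 CPM (SD, n = 7 and 4), with Ly6g at 0. The part of these marker levels in the results below was not tested.

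CYR61-treated macrophages had more transcript of 9 of the 10 GTPase genes, and 0 fell. The rises ran from 1.18-fold (Gbp9) to 2.34-fold (Iigp1), and Igtp, at 1.12-fold, did not pass. By edgeR's quasi-likelihood test at a Benjamini-Hochberg adjusted p of 0.05, 5.33% of the 15135 genes tested were higher with CYR61 and 2.63% lower, 7.96% in either direction. All 10 genes passed the filter on low counts. Iigp1 did so only through the CYR61 group, where 4 of 4 libraries reached the minimum of 10 counts at the median library size, against 2 of 7 controls. All 4 CYR61 libraries stood above all 7 controls for 7 of the 10 genes, against 4.65% of all genes tested. The median log2 fold change of the 10 genes was 0.76, against -0.01 for all genes tested. The authors' deposited table held 9 of the 10, all but Iigp1, and put 8 of them past an adjusted p of 0.05 as higher, with Igtp again the exception.

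**Figure D2:**
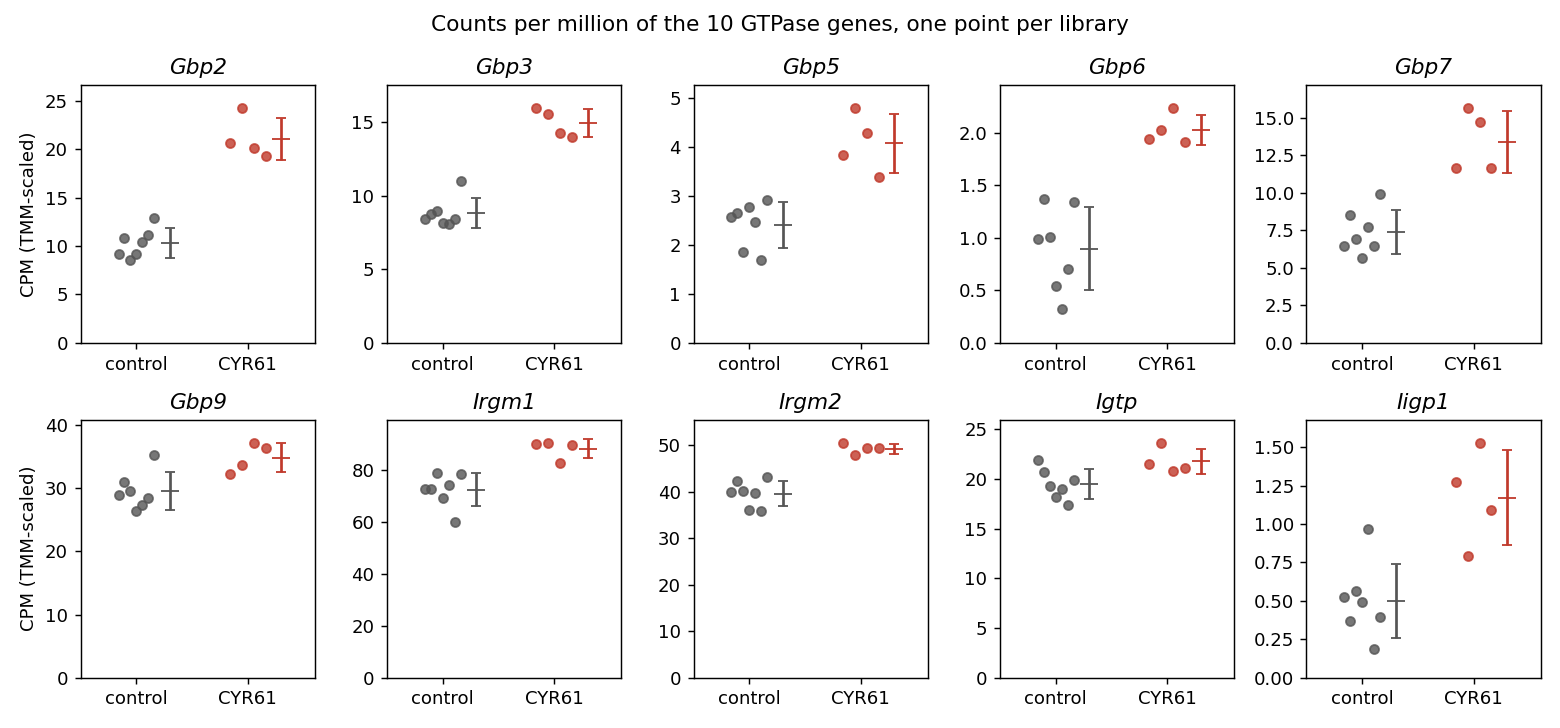
TMM-scaled CPM of each of the 10 genes in every library (y axis, from 0; control grey, CYR61 red), with mean and SD beside the points. In Gbp2 the 4 CYR61 libraries (19.3 to 24.2 CPM) stand clear of the 7 controls (8.53 to 12.9 CPM), while in Igtp the groups overlap.

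The GBP genes of the chromosome 3 cluster, Gbp2, Gbp3, Gbp5 and Gbp7, rose between 1.69-fold and 2.04-fold. Gbp2, a prenylated GBP that marks vacuoles and bacteria, was at 8.53 CPM in the lowest, 10.4 in the median and 12.9 in the highest control library. The CYR61 libraries had 20.6, 24.2, 20.1 and 19.3 CPM in replicates 1 to 4. The lowest treated library therefore lay well above the highest control. The means were 10.3 ± 1.51 and 21.1 ± 2.17 CPM, a fold of 2.04 (95% interval 1.78 to 2.33, adjusted p = 1.55e-06, edgeR), and 49 of the 806 genes called higher had a larger fold.

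Gbp3 had 8.04, 8.42 and 10.99 CPM in the lowest, median and highest control library. In CYR61 replicates 1 to 4 it had 15.9, 15.5, 14.3 and 13.97 CPM. Control replicate 7 lay above the other controls, which were close together, still below every treated library. Of its 11 estimated counts 7 were whole numbers. The fold was 1.69 (1.51 to 1.90, adjusted p = 8.42e-06, edgeR).

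Gbp7, which is linked to assembly of the phagocyte oxidase and to autophagy, had 5.66, 6.90 and 9.95 CPM in the lowest, median and highest control library. Its CYR61 values were 11.6, 15.6, 14.7 and 11.7 CPM. Replicates 2 and 3 were the high ones, and replicates 1 and 4 were close to each other and nearer to the highest control. The fold was 1.81 (1.51 to 2.18, adjusted p = 0.000243, edgeR). Only 5 of its 11 estimated counts were whole numbers, and it shares annotated exon sequence with Gm43802 on the same strand (0 to 14.1 counts).

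Gbp5, a GBP known for promoting NLRP3 and AIM2 inflammasome responses, was scarcer, at 1.68, 2.56 and 2.92 CPM in the lowest, median and highest control library. In the treated libraries it was at 3.83, 4.78, 4.29 and 3.38 CPM. The groups did not overlap, but the gap between the highest control and the lowest treated library was small. Means of 2.41 ± 0.468 and 4.07 ± 0.601 CPM gave a fold of 1.69 (1.35 to 2.12, adjusted p = 0.00409, edgeR).

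The chromosome 5 cluster holds Gbp6 and Gbp9, which differed from each other in level and in fold. Gbp6 was rare, with 6.36 to 27 estimated counts in control libraries. Its control values were 0.322, 0.985 and 1.37 CPM (lowest, median, highest), and the CYR61 values 1.94, 2.02, 2.23 and 1.91 CPM. The treated libraries were close together and all above the controls, which were widely spread (coefficient of variation 44.0% against 7.12%). The fold was 2.25 with a wide interval (1.53 to 3.32, adjusted p = 0.00916, edgeR). Gbp6 shares annotated exon sequence with Gm43302 on the same strand (0 to 18.2 estimated counts), and only 4 of its 11 counts were whole numbers, so its value is uncertain.

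Gbp9 had 26.4, 29.0 and 35.3 CPM in the lowest, median and highest control library and 32.2, 33.7, 37.2 and 36.4 CPM in CYR61 replicates 1 to 4. Here the groups overlapped, because control replicate 7 exceeded CYR61 replicates 1 and 2. The rise of 1.18-fold (1.07 to 1.30) was close to the threshold (adjusted p = 0.0376, edgeR), and 11 of 21 alternatives lost the call, with adjusted p over all 21 from 0.00219 to 0.134. Left out 1 at a time, control replicates 1, 3, 4, 5 and 6 and CYR61 replicates 2, 3 and 4 each ended it. Gbp9 shares annotated exon sequence with Gbp4 and Gbp8 on the same strand, and only 6 of its 11 estimated counts were whole numbers, so part of its reads was shared between genes.

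The regulatory IRG genes on chromosome 11 had folds of 1.12 (Igtp, not passed) to 1.24 (Irgm2). Irgm1, whose loss is known to impair control of mycobacteria and to disturb mitochondria and autophagy, had 60.1, 72.8 and 79.0 CPM in the lowest, median and highest control library. It had 89.9, 90.4, 82.8 and 89.8 CPM in CYR61 replicates 1 to 4. All treated libraries were above the controls, with replicate 3 apart from the other three. The fold was 1.22 (1.12 to 1.33, adjusted p = 0.00292, edgeR). Its mean rose by 15.8 CPM, more than the 10.8 CPM of Gbp2, in which the fold was larger.

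Irgm2 and Igtp are neighbours that overlap in the GENCODE M21 annotation, and 0 of 11 estimated counts of either gene were whole. Irgm2 had 35.9, 39.9 and 43.1 CPM in the lowest, median and highest control library and 50.4, 47.8, 49.3 and 49.5 CPM with CYR61. The treated libraries differed little (coefficient of variation 2.20%) and lay above every control, a fold of 1.24 (1.16 to 1.34, adjusted p = 0.000306, edgeR). Igtp had 17.4, 19.3 and 21.9 CPM in the lowest, median and highest control library and 21.5, 23.6, 20.8 and 21.1 CPM with CYR61. Only replicate 2 exceeded the highest control, and the fold of 1.12 (1.02 to 1.23) did not pass (adjusted p = 0.129, edgeR; 0.061 to 0.382 over 21 alternatives). Because reads can be split between them, their sum was also taken. It was 53.3 to 63.0 CPM in control libraries and 70.1 to 71.9 CPM in CYR61 libraries, a ratio of means of 1.20, and these ranges did not overlap.

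Iigp1 (also called Irga6), an effector IRG, was at the edge of detection, with 4 to 18 counts in control and 16 to 26 in CYR61 libraries. Its control values were 0.187, 0.49 and 0.964 CPM (lowest, median, highest) and its CYR61 values 1.27, 0.789, 1.53 and 1.09 CPM. Control replicate 5 lay above CYR61 replicate 2, so the groups overlapped. The fold of 2.34 was the largest of the 10 and the least precise (1.48 to 3.69, adjusted p = 0.0194, edgeR). The call was lost without CYR61 replicate 1 (adjusted p = 0.0501) or replicate 3 (adjusted p = 0.0871, edgeR), within a range of 0.00412 to 0.124 over 20 alternatives.

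**Figure D3:**
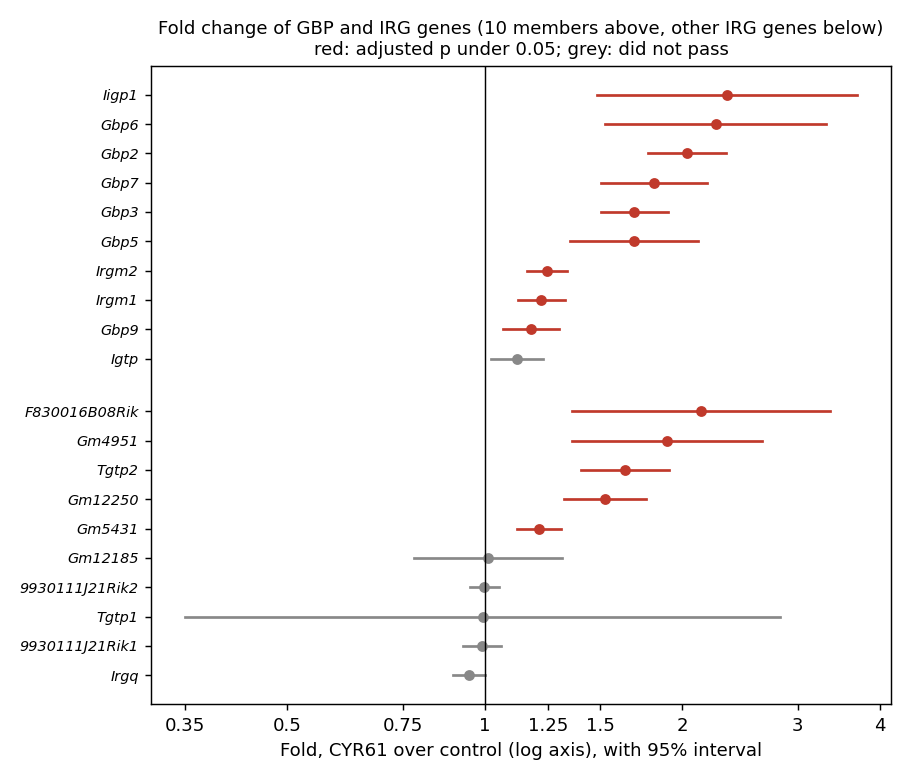
Fold of CYR61 over control (log axis, points) with 95% intervals (lines) for the 10 genes and for 10 further IRG genes. Red marks genes past the threshold, grey those that did not pass; 6 of the 10 genes lie at 1.69-fold or more and the other four at 1.12 to 1.24-fold.

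Levels between genes were compared per kb of annotated exon (GENCODE M21, matched by Ensembl ID; the authors' annotation may differ). In control libraries Irgm1 was highest at 12.5 ± 1.1 CPM per kb, followed by Irgm2 (10.7 ± 0.747), Igtp (9.64 ± 0.752), Gbp9 (5.72 ± 0.57), Gbp2 (4.10 ± 0.598), Gbp3 (2.70 ± 0.309), Gbp7 (1.31 ± 0.263), Gbp5 (0.364 ± 0.0706), Gbp6 (0.15 ± 0.0663) and Iigp1 (0.0857 ± 0.0412 CPM per kb). Neighbours in this order whose control ranges overlapped were Irgm1 and Irgm2, Irgm2 and Igtp, Gbp9 and Gbp2, and Gbp6 and Iigp1. Split by fold after the values were seen, and so given with no test, the 4 genes under 1.5-fold had control levels of 5.72 to 12.5 CPM per kb, and the 6 at 1.5-fold or more had 0.0857 to 4.10 CPM per kb. The control level is also the denominator of the fold, so level and fold are not independent. Iigp1, at the low end, passed the filter only through the CYR61 group. Gbp8, at 0.101 CPM per kb in control and 0.1055 in CYR61 libraries, did not pass the filter and has no fold here. Not every IRG gene outside the 10 followed that order, as Gm12250, at 5.96 CPM per kb, had a fold of 1.53, and Gm12185, at 0.43 CPM per kb, a fold of 1.01. In CYR61 libraries Gbp2 stood at 8.37 ± 0.862 and Gbp9 at 6.74 ± 0.445 CPM per kb, so their order was the reverse of that in controls.

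**Figure D4:**
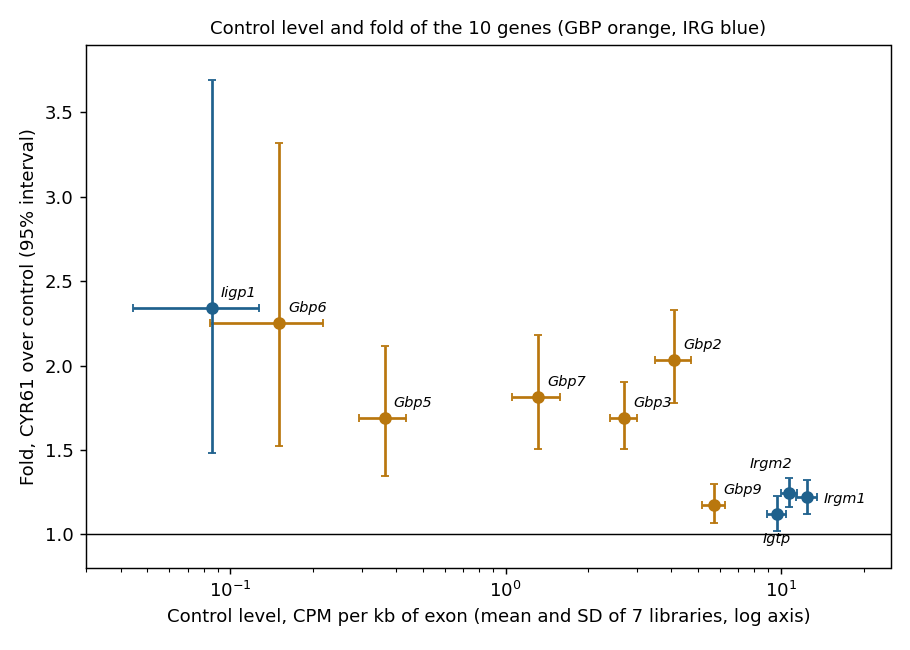
Control level per kb of exon (x axis, log, mean and SD of 7 libraries) against fold with its 95% interval (y axis) for the 6 GBP genes (orange) and 4 IRG genes (blue). The 4 genes with the highest control level per kb have the 4 smallest folds. The control level is also the denominator of the fold, so the axes are not independent.

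The 10 genes also varied among control libraries. Control replicate 7 was the highest control for 6 of them and control replicate 6 the lowest for 5. Summed over the 10 genes, controls ran from 170.5 CPM (replicate 6) to 215.4 CPM (replicate 7), and CYR61 libraries from 247.2 to 258.4 CPM. Across the 7 controls the median Pearson r of the 45 gene pairs was 0.46 (-0.48 to 0.94). This is a description of few libraries, which differed in depth and whose preparation batches are not stated. Outside both families, the 5 genes whose log2 CPM was most like the mean standardised level of the 10 genes over 11 libraries, of 13323 searched, were Ly6e, Trim30a, Ifi213, Ifi211 and Mndal (Pearson r 0.978 to 0.985, Spearman rho 0.936 to 0.982). These were picked as the highest of all and carry the treatment difference, so no p is given; Ly6e went from 582.9 ± 64.6 to 818.7 ± 32.5 CPM and Ifi213 from 6.79 ± 1.79 to 13.7 ± 1.26 CPM. Over the 7 controls alone they were Mrpl9, Mlst8, Oasl2, Ifi213 and Gm26797 (Pearson r 0.958 to 0.978, Spearman rho 0.893 to 0.964), of which Oasl2 and Ifi213 are interferon-stimulated and rose with CYR61, and the other three did not pass.

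Of 11 further IRG genes in the table, 10 were tested, 5 rose (against 5.33% of all genes tested), 0 fell and 5 did not pass. Tgtp2, an effector IRG (Irgb6), rose 1.64-fold, from 3.62 ± 0.508 to 5.90 ± 0.252 CPM (adjusted p = 0.000264, edgeR), with all CYR61 libraries above all controls. Gm12250, listed in the table as a pseudogene and known as Irgb10, an effector that acts with GBPs on bacteria, rose 1.53-fold (7.59 ± 1.07 to 11.6 ± 1.05 CPM). Gm5431 rose 1.21-fold (45.6 ± 3.8 to 55.4 ± 1.67 CPM), Gm4951 1.90-fold (1.38 ± 0.452 to 2.62 ± 0.555 CPM) and F830016B08Rik 2.14-fold (0.676 ± 0.354 to 1.46 ± 0.25 CPM). The call of F830016B08Rik was lost in 11 of 20 alternatives and that of Gm4951 in 4 of 21. Without CYR61 replicate 3 the adjusted p of Gm4951 was 0.0806 (edgeR; 0.00467 to 0.0806 over its alternatives).

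The tandem IRG genes 9930111J21Rik1 (102 ± 5.88 and 101 ± 5.83 CPM) and 9930111J21Rik2 (176 ± 6.43 and 176 ± 7.72 CPM) did not pass, with intervals of the fold from 0.929 to 1.06 and from 0.949 to 1.05. Irgq (44.3 ± 1.5 and 41.9 ± 1.81 CPM), Gm12185 (2.41 ± 0.601 and 2.45 ± 0.298 CPM) and Tgtp1 (0.403 ± 0.346 and 0.383 ± 0.362 CPM) did not pass either, and Irgc1, at 1 to 6 counts, was too low to be tested. Tgtp1 and Tgtp2 are near-identical copies, 2 of 11 counts of each were whole, and their separate values are uncertain. Promoter windows were used for 9 of the 19 genes in the lists of further IRG and GBP genes. Of these 9, 6 held an ISRE match and 4 a GAS match. Gm4951 and F830016B08Rik, which rose, were among the genes not searched. Tgtp2 and Gm12250, which rose, are shown with the first ISRE match of each in capitals.
Tgtp2 (chr11:49064263-49064292, minus strand): tccaggaatcGAAACCGAAAcctactctga
Gm12250 (chr11:58183742-58183771, plus strand): cctcggtggcTTTCAGTTTCtatgcctaga

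Windows of Tgtp1 and Gm12185, which did not pass, held an ISRE match as well. In each a GAS match ended 2 bases before it, as in Irgm2, Igtp and Tgtp2. The well-measured 9930111J21Rik1, which did not pass, held an ISRE match 26 bases after its start site, and Gbp2b held 1 too. Gm5431, which rose, held none. Among further GBP genes, 5 were in the table and 0 passed the filter. Gbp2b had 0 counts in every control library and 1 to 2 in each CYR61 library, Gbp4 0 to 2 and 1.01 to 9.08 estimated counts, Gbp8 2 to 15 and 5 to 9, Gbp10 at most 1.32, and Gbp11 0. A library with 0 counts is compatible with up to 3 (0.140 to 0.197 CPM, counting error only). Each CYR61 library had more Gbp2b counts than each control, at counts too low to pass the filter, and the difference was not tested.

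Among GTPases related to these families in domain or induction, 4 of 9 rose (against 5.33% of all genes tested) and 0 fell. Mx1, an antiviral dynamin-like GTPase gene, rose from 12.0 ± 1.94 to 18.7 ± 1.16 CPM (1.57-fold). Its paralog Mx2 rose from 8.43 ± 0.747 to 10.7 ± 0.928 CPM (1.27-fold). Gvin1 and Gm4070, of the very large inducible GTPases, rose 1.21-fold and 1.20-fold. For either gene 0 of 11 estimated counts were whole, so their separate values are uncertain. CYR61 replicate 3 was the highest treated library for Gvin1 (240.2 CPM) and the lowest for Gm4070 (172.8 CPM). The latter value lay below the control median of 180.8 CPM, so the groups overlapped for Gm4070. The atlastin genes, whose GTPase domain resembles that of GBPs and which fuse endoplasmic reticulum membranes, did not pass: Atl1 was at 3.40 ± 0.411 and 2.54 ± 0.495 CPM, Atl2 at 24.3 ± 0.755 and 23.7 ± 1.55 CPM, and Atl3 at 138 ± 2.43 and 144 ± 5.84 CPM.

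Genes of interferon signalling were examined next, since they carry the known signal to GBP and IRG promoters. Of 18 tested, 6 rose (against 5.33% of all genes tested), 0 fell and 12 did not pass, with a median log2 fold change of 0.10. The rises were in genes of transcription factors, in the activator gene Nlrc5 and in 1 receptor chain. Irf1, which is needed for much of GBP induction, had 64.5, 69.0 and 70.0 CPM in the lowest, median and highest control library and 79.5, 84.6, 80.8 and 78.9 CPM with CYR61. That is 1.19-fold (1.13 to 1.24, adjusted p = 6.53e-05, edgeR), with no overlap.

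Stat2 rose 1.29-fold (147 ± 13.1 to 190 ± 18.9 CPM) and Nlrc5, the activator of MHC class I genes, 1.18-fold (108 ± 6.06 to 128 ± 10.4 CPM). Irf9 rose 1.11-fold (72.0 ± 3.59 to 79.8 ± 2.92 CPM), a call lost in 8 of 21 alternatives, and Ifnar1, a chain of the type I interferon receptor, 1.09-fold (112 ± 5.35 to 123 ± 4.25 CPM), lost in 10 of 21. Scaling to total counts without TMM factors ended both calls.

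The receptor genes of interferon gamma did not pass. Ifngr1 was at 156 ± 8.31 and 155 ± 6.79 CPM (fold 0.939 to 1.06), and Ifngr2 at 114 ± 3.93 and 119 ± 5.07 CPM (0.988 to 1.09). Their kinase genes Jak1 (215 ± 6.33 and 225 ± 9.70 CPM) and Jak2 (37.2 ± 1.26 and 37.9 ± 2.86 CPM) did not pass either. Of the interferon genes only Ifng and Ifnb1 were examined, at 24 h. Ifng had 0 counts in all 11 libraries, and Ifnb1 at most 2 in a control and 3 in a CYR61 library.

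Of 10 tested genes that interferon gamma is known to induce, 8 rose (against 5.33% of all genes tested), 0 fell and 2 did not pass. All CYR61 libraries stood above all controls for 5 of the 10, against 4.65% of all genes tested. Like the other lists, this one was chosen with earlier results of these data known, so these shares are no neutral comparison. Acod1, the itaconate enzyme, rose 3.13-fold and the immunoglobulin receptor gene Fcgr1, also counted among the macrophage markers above, 1.63-fold. Icam1 rose 1.22-fold (72.6 ± 2.35 to 88.6 ± 5.24 CPM), the immunoproteasome genes Psmb8 1.19-fold (89.4 ± 5.6 to 107 ± 0.722 CPM) and Psmb9 1.18-fold (33.4 ± 3.02 to 39.4 ± 0.927 CPM), and the peptide transporter gene Tap1 1.19-fold. Several hallmark targets were scarce: Cxcl10 was at 4.31 ± 1.42 and 4.76 ± 0.76 CPM and did not pass, H2-Aa did not pass (6.35 ± 0.706 and 7.78 ± 1.09 CPM), Ido1 had 0 counts in every library, and Cxcl9 at most 6, Nos2 at most 7 and Serpina3g at most 3 counts in a library.

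**Figure D5:**
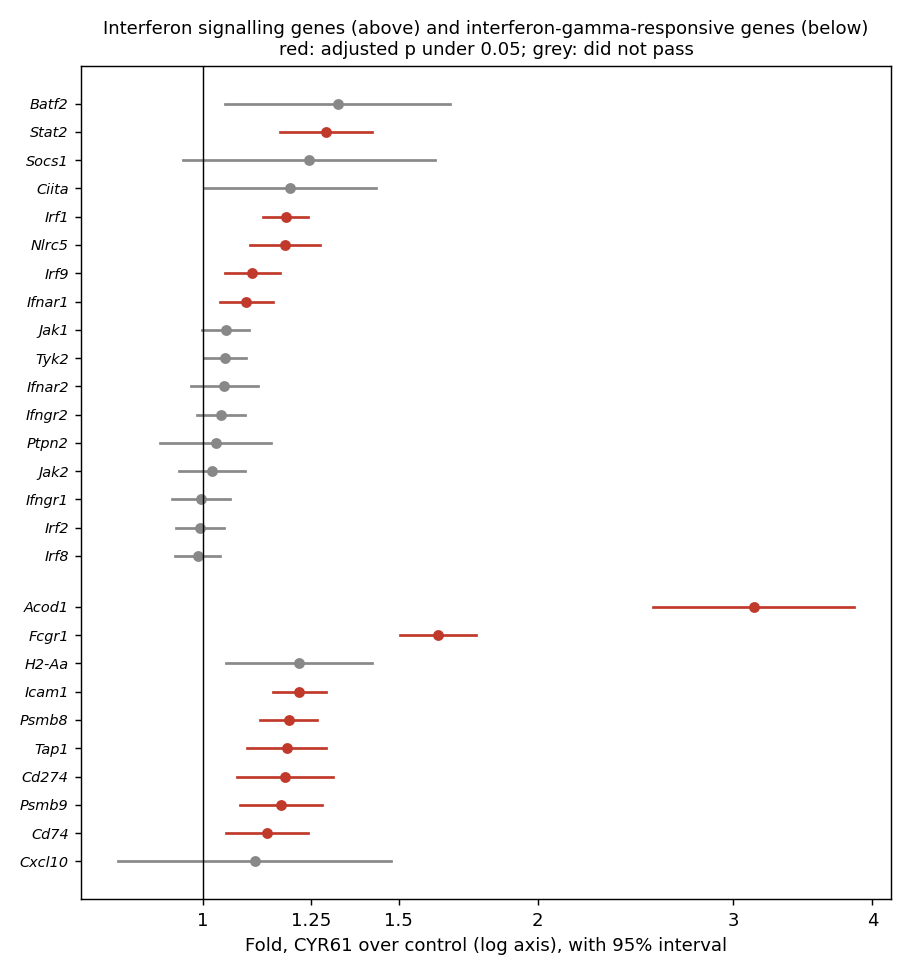
Fold of CYR61 over control (log axis) with 95% intervals for 17 genes of interferon signalling (upper block) and 10 interferon-gamma-responsive genes (lower block); red passed the threshold, grey did not. Stat2, Irf1 and Nlrc5 lie at 1.18 to 1.29-fold and the receptor gene Ifngr1 at 0.997.

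GBP and IRG proteins act with ubiquitin ligases, autophagy conjugation proteins, prenyl transferases and caspase-11. In the list of recruitment, ubiquitin and autophagy genes, 4 of 17 rose (against 5.33% of all genes tested), 0 fell and 13 did not pass. Rnf213, a giant ligase that coats bacteria with ubiquitin, rose from 1271 ± 103 to 1596 ± 142 CPM, the ligase gene Trim21 1.12-fold (29.1 ± 1.05 to 32.7 ± 1.34 CPM), the kinase gene Pim1, whose product restrains human GBP1, 1.15-fold (72.2 ± 2.16 to 83.3 ± 8.20 CPM) and Atg5, whose conjugation complex is needed for IRG loading, 1.11-fold (30.2 ± 1.15 to 33.4 ± 0.906 CPM). Traf6 was at 51.9 ± 2.31 and 47.7 ± 0.578 CPM and did not pass (adjusted p = 0.0557, edgeR).

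Of 8 prenylation genes 1 rose, a count too small to be told from the 5.33% of all genes tested. It was Fdps, which makes farnesyl diphosphate (56.3 ± 2.73 to 79.6 ± 2.61 CPM, 1.41-fold). Pggt1b, the subunit of geranylgeranyl transferase I that modifies GBPs, was at 52.6 ± 1.38 and 55.01 ± 4.53 CPM and did not pass. In the caspase-11 and inflammasome list 2 of 8 tested genes rose (against 5.33% of all genes tested) and 0 fell. This count too is small and is not read as a result about the list. The pore-forming gasdermin gene Gsdmd rose 1.11-fold (85.0 ± 2.02 to 94.3 ± 4.27 CPM). The adaptor gene Pycard rose 1.09-fold (53.6 ± 2.05 to 58.4 ± 1.82 CPM). Casp4, which encodes caspase-11, was at 15.8 ± 1.09 and 17.9 ± 2.77 CPM and did not pass (adjusted p = 0.203, edgeR), and neither did Casp1 or Nlrp3.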

How the data were processed

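The submitters' processing notes name DRAGEN. Its role and version are not stated there, nor are a genome build and annotation. Ribosomal RNA was depleted, cDNA was primed with random hexamers and reads were paired, 150 bases each, per the labels' protocols, which do not say whether strand is kept. The authors deposited estimated counts per gene, not normalized, and a table of their comparison with log2 values, p-values and scores, quoted only where named. Repeated gene IDs (287 of 55774 rows) were dropped and estimated counts were rounded.

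Groups came from the labels. CYR61 was compared with control over 11 libraries in edgeR 4.0.16 (R 4.3.3; filterByExpr, TMM, glmQLFit and glmQLFTest, two-sided, Benjamini-Hochberg over 15135 genes, threshold 0.05). The biological coefficient of variation was 5.64%. The script was tested on simulated data. CPM are TMM-scaled, values are mean ± SD (n = 7 and 4), and intervals are the fit's 95% intervals. Adjusted p-values without another tool's name are from edgeR. The members and lists were chosen with earlier results of these data known. Named were all members and measured paralogs, fixed signalling genes (receptors, kinases, Irf1, interferons), called genes of that list, up to 6 called and 3 other genes of each further list, and the 5 most similar genes. One gene of the signalling list enters its counts and is not reported here by itself. Lists were scored by counts and medians, with no set test. The marker lists also held B cell, dendritic cell, endothelial, stromal, and mast cell and basophil genes; of their 4 testable genes 0 passed. The alternatives used DESeq2 1.42.0, limma-voom (limma 3.58.1), RLE factors, library size alone, a minimum mean of 1 CPM, no filter, a replicate block, the same 8 libraries without it, each library left out, CYR61 replicates 1 and 4 left out together, and an adjusted p of 0.01. Promoter windows came from RefSeq (GRCm38.p6).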

Additional observations from a re-analysis of the deposited data

Results flagged for a closer look

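Each of the 10 genes was checked for a library far from the others of its group, in 20 groups in all, of which chance would pick about 1 in 20. Gbp3 in control replicate 7 (10.99 CPM) stood above the other controls, with a gap of 0.701 of the group's range. Without that library the log2 fold change of Gbp3 was 0.82, against 0.76 with it. Irgm1 in CYR61 replicate 3 (82.8 CPM) stood below the other treated libraries, with a gap of 0.921 of the range. Without it the log2 fold change of Irgm1 was 0.32, against 0.29.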

How the results depend on the processing

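Over 21 alternatives, the 10 genes kept their direction in all 209 values, and 192 also kept their side of the threshold. Igtp kept its side by not passing in any. The alternative at an adjusted p of 0.01 reused the main fit, so its directions could not differ. The others refitted the same libraries or a part of them. The 17 calls lost were those of Gbp9 (11), Iigp1 (4), Gbp6 (1) and Irgm1 (1). The number of the 10 called higher was 7 to 9 with 1 library left out and 5 without CYR61 replicates 1 and 4 together, where Gbp6 (adjusted p = 0.0518), Irgm1 (0.0549), Gbp9 (0.0998) and Iigp1 (0.124) did not pass in edgeR; fewer samples entered that fit. Over all genes, 1204 were called (806 higher, 398 lower), 640 at an adjusted p of 0.01, and 788 (without CYR61 replicate 2) to 1372 (without control replicate 7) with 1 library left out. Scaling by library size alone gave 529 higher and 938 lower. TMM factors were 1.004 to 1.023 in control and 0.971 to 0.993 in CYR61 libraries, so small folds depend on this scaling. Single genes were followed through the alternatives only for the GBP, IRG and interferon signalling lists. Small rises in the other lists, such as those of Atg5, Trim21, Gsdmd and Pycard, were not checked in this way. The median log2 fold change of the 10 genes was 0.703 to 0.817 with 1 library left out, and 4 to 6 interferon signalling genes were called. Same-numbered control and CYR61 libraries did not deviate together (r -0.0391 to 0.042 over 4 pairs, 1 of 4 correlating best with its own number). With the replicate block 1261 genes and 9 of the 10 were called, against 1267 and 9 in the same 8 libraries without it. Low counts limit Iigp1 and Gbp6 most.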
